A study of Caenorhabditis elegans with 10 samples.

Results

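Within the gas-1(fc21) strain of the nematode Caenorhabditis elegans, the arrays of replicates 4 and 5 differed from those of replicates 1, 2 and 3 in sperm, cuticle collagen, muscle and heat shock genes. The comparison covers 5 of the 10 arrays of the series, 2 against 3, all with the same labelled genotype and age. The 2 sets were chosen by the measured values of sperm, muscle and collagen genes on these same arrays, so every difference below is a description of these 5 arrays and no test is given for any of them. The labels give the replicates numbers only, with no scan date, preparation day or other mark that separates 4 and 5 from 1 to 3.

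The mutant arrays carry the missense allele fc21 of gas-1 (K09A9.5), which encodes a subunit of complex I, the entry point of the mitochondrial electron transport chain. The other 5 arrays, labelled wild type, are of the same age and enter only as a level to set beside the mutant values. Both strains were synchronised by bleaching, raised on OP50 bacteria and labelled young adults. A sorter collected 1000 living animals per replicate by size, and RNA came from aliquots of at least 500 of them. Each array is therefore a pool of whole animals, in which fewer cells of a type and less RNA per cell cannot be told apart.

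A hermaphrodite worm makes its sperm during the last larval stage and early adulthood and then switches its germ line to oocytes for good, so sperm transcripts mark animals near that switch. The cuticle, a sheath of crosslinked collagens around the body, is rebuilt at every moult, and different collagen genes are transcribed in turn during each rebuilding. Body-wall muscle lies beneath the epidermis and is anchored through it to the cuticle. Yolk proteins, or vitellogenins, are made by the adult intestine and taken up by oocytes.

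Values are deposited log2 intensities, and a difference is the mean of replicates 4 and 5 minus the mean of replicates 1 to 3. Of 22548 probe sets, 697 were at least 2-fold higher on replicates 4 and 5 with no overlap between the sets, which is 3.09%. Another 30 were at least 2-fold lower with no overlap, which is 0.133%. Both counts depend on scaling: centring the arrays on their medians gave 457 higher and 73 lower, and quantile normalization 489 higher and 65 lower. The lower count also rose to 65 without replicate 5, and to between 33 and 40 without any 1 of the other arrays. Leaving out an array also loosens the demand of no overlap. With 1 probe set per gene, 499 of 17118 genes were higher (2.92%) and 22 were lower (0.129%). At least 4-fold differences were found at 144 probe sets in the higher direction and 2 in the lower. The excess of higher genes did not extend to the bulk of genes, because the median difference over all genes was 0.03. Over all probe sets the 5th and 95th percentiles were -0.36 and 0.80. By any amount, 6783 probe sets (30.1%) read higher on both replicates 4 and 5 than on all of replicates 1 to 3, and 3512 (15.6%) read lower. Over genes these shares were 29.9% and 15.8%, or 5114 above and 2712 below. That balance turned with scaling, to 3366 genes above and 5148 below after quantile normalization and to 2684 above and 7108 below after centring. Since the same values set the arrays apart, these shares serve only as the level beside which the counts of each gene group are given.

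The difference between the sets was far larger than the spread inside them. In the 6 pairs that cross the sets, between 726 and 957 probe sets lay at least 2-fold apart. Replicates 4 and 5 differed by that much at 64 probe sets, and the 3 pairs among replicates 1, 2 and 3 at 69 to 89. Every crossing pair thus differed at more probe sets than any pair inside a set. Because the sets were chosen on these same arrays, neither these counts nor the principal components below are separate support for the split. The first principal component held 71.3% of the variance, with replicates 4 and 5 at 40.5 and 38.5 and replicates 1, 2 and 3 at -27.39, -22.60 and -28.97. The second held 12.6% and set replicate 1, at 24.5, apart from the rest.

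**Figure D1:**
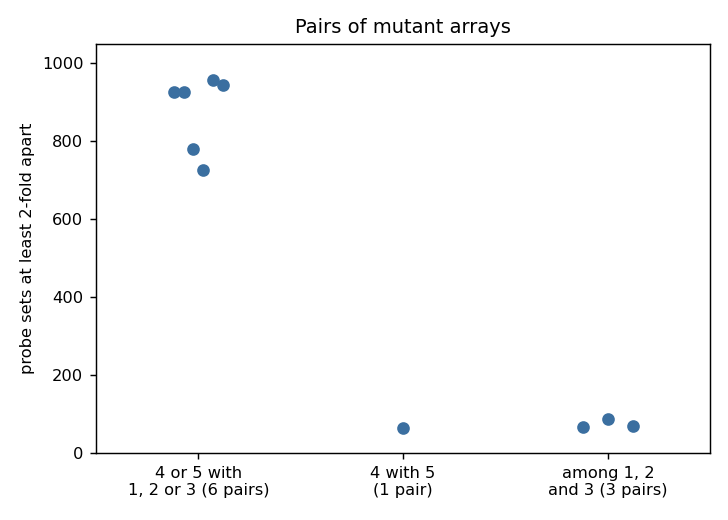
Number of probe sets at least 2-fold apart (vertical axis) for each of the 10 pairs of mutant arrays, 1 point per pair. The 6 pairs across the sets lie between 726 and 957, and the 4 pairs inside a set between 64 and 89.

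Some array-wide values moved with the split. The medians over all probe sets were 6.58 and 6.57 on replicates 4 and 5, against 6.42, 6.37 and 6.37 on replicates 1, 2 and 3, and centring the arrays on their medians lowers every difference by 0.19. The 3′ minus 5′ difference of the actin control, a measure of RNA integrity, was 0.13 and 0.12 on replicates 4 and 5, against 0.29, 0.22 and 0.18 on replicates 1, 2 and 3. For the GAPDH control it was -0.21 on both replicates 4 and 5, against -0.32, -0.26 and -0.31 on replicates 1, 2 and 3. For the ubiquitin control it was 0.65 on both replicates 4 and 5, against 0.58, 0.64 and 0.62 on replicates 1, 2 and 3. Both the GAPDH and the ubiquitin values thus ran in the opposite direction to actin. The part of these shifts in the results was not tested. The mutated gene itself, gas-1, read 11.34 and 11.31 on replicates 4 and 5, against 10.89, 10.93 and 11.08 on replicates 1, 2 and 3, a 1.28-fold difference. A missense allele alters the protein rather than removing the gene, so this level does not check the genotype.

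The major sperm protein genes were all far higher on replicates 4 and 5. These small cytoskeletal proteins drive the crawling of nematode sperm and are released as a signal for oocyte maturation and ovulation. All 23 measured msp genes were at least 2-fold higher on replicates 4 and 5 without overlap, with differences of 2.95 to 3.84 and a median of 3.52. Every one of the 23 was read on a probe set that shares probes with similar sequences, so the family's near-identical members are not separate measurements. Without such probe sets 1 member, msp-32, was left, at 6.61 and 6.90 on replicates 4 and 5, against 5.69, 5.45 and 5.49 on replicates 1, 2 and 3, a difference of 1.22. The list medians were 11.22 and 11.12 on replicates 4 and 5, against 7.61, 7.58 and 7.63 on replicates 1, 2 and 3. Even the lowest msp reading on replicates 4 and 5, at 9.48, was above the highest on replicates 1 to 3, at 8.85.

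Among single members, msp-76 read 11.47 and 11.21 on replicates 4 and 5, against 7.26, 7.61 and 7.63 on replicates 1, 2 and 3, a 14.3-fold difference. Of the related genes whose products carry an MSP domain, msd-2 read 10.11 and 9.94 on replicates 4 and 5, against 5.71, 5.96 and 6.05 on replicates 1, 2 and 3, or 17.4-fold. For msd-4 the values were 9.95 and 9.78, against 5.82, 5.77 and 5.75, or 16.9-fold. In all 3 genes the sets lay more than 3 log2 units apart, with at most 0.36 between arrays of 1 set.

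The other sperm genes differed among themselves. Of 46 measured, 15 were at least 2-fold higher and none lower, against 2.92% and 0.129% of all genes. On both arrays 28 read higher than on all of replicates 1 to 3, against 29.9% of all genes, and the median difference was 0.50. Most of the 15 belong to small sperm-enriched families: 4 nspd genes, 5 ssp genes, both msd genes, gsp-3 and gsp-4, htas-1 and spch-1. Other members of such families stayed under 2-fold, among them ssp-35 at 0.87, ssq-2 at 0.79 and smz-1 at 0.74. The sperm-specific protein phosphatase gene gsp-3 read 7.05 and 7.27 on replicates 4 and 5, against 5.21, 5.09 and 5.45 on replicates 1, 2 and 3, and its paralogue gsp-4 differed by 1.55. The nspd-4 gene, of a sperm-enriched peptide family, read 8.7 and 8.56, against 5.35, 5.22 and 5.44. The sperm histone gene htas-1 read 6.52 and 6.41, against 5.27, 5.27 and 5.40.

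The regulatory and sperm function genes named next, picked after their values were seen, differed by under 0.40 in either direction. The transcriptional regulator spe-44 read 8.99 and 8.91 on replicates 4 and 5, against 8.7, 8.95 and 8.92 on replicates 1, 2 and 3, and the sets overlapped. The sperm fate gene fog-1 differed by -0.16, and fog-3, which acts in the same choice between sperm and oocyte, by 0.30. The RNA-binding protein gene cpb-1, needed for progress through spermatogenesis, differed by -0.31. The sperm activation genes spe-8 and spe-12 differed by -0.34 and -0.38, and spe-9, which sperm need to fertilise, by -0.10. Several of these genes sat low on every mutant array: spe-12 read 3.67 and 3.59 on replicates 4 and 5, against 3.78, 4.0 and 4.26 on replicates 1, 2 and 3, below the 4.42 to 4.68 at which the dim control probe sets had their medians.

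Probe design entered the sperm result as well. Of the 69 sperm genes, 28 were read on probe sets without shared probes, and 3 of these (ssp-16, ssp-19 and htas-1) were at least 2-fold higher, with a median of 0.19 over the 28. Of the 41 on shared probes, 35 were higher, with a median of 3.23. Of 12 male-specific genes measured, none reached 2-fold, 3 lay above and 2 below without overlap, against 29.9% and 15.8% of all genes, and the median difference was 0.01 as deposited and -0.18 after centring. The part of male animals in the sperm result was not tested. The male gene dmd-3, a regulator of male tail shape, read 8.85 and 8.71 on replicates 4 and 5, against 8.68, 8.56 and 8.55 on replicates 1, 2 and 3.

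**Figure D2:**
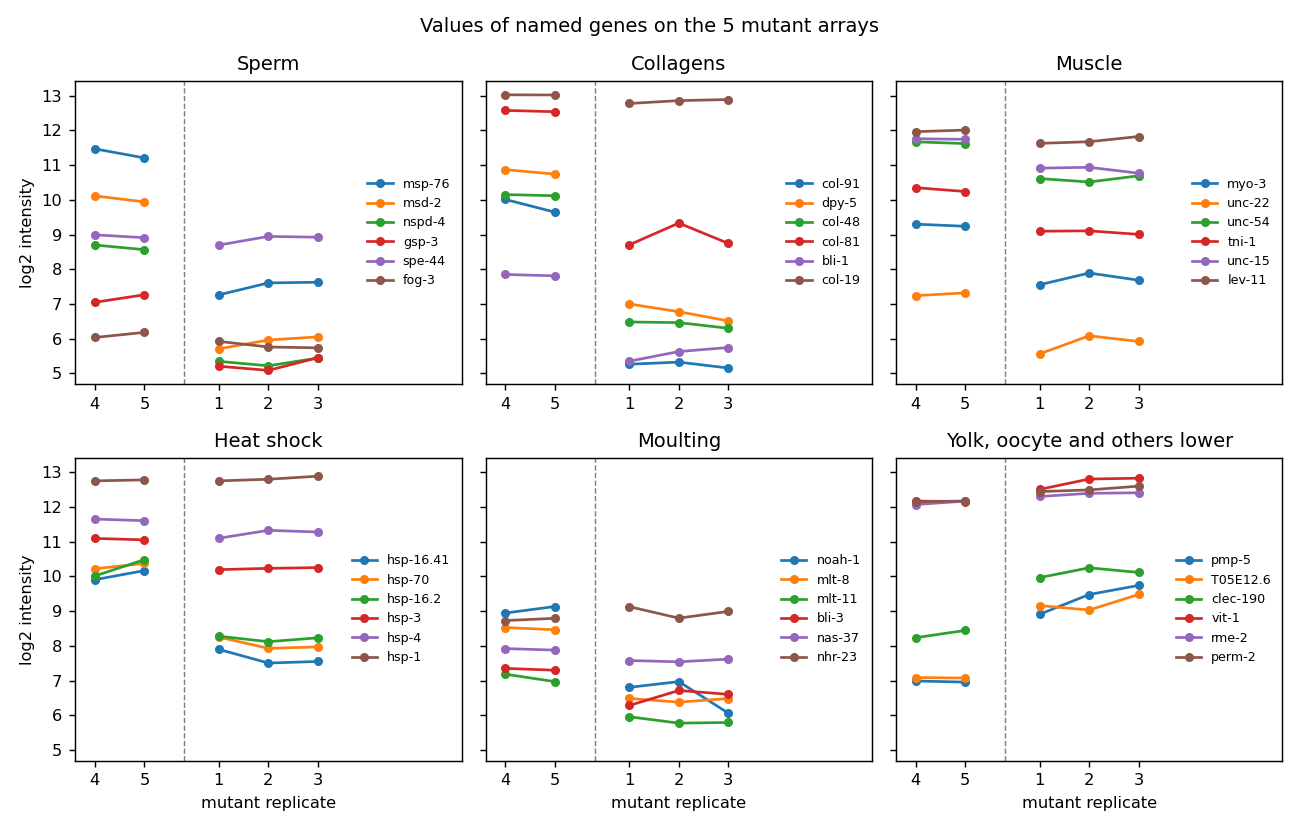
Log2 intensity (vertical axis) of 36 named genes on the 5 mutant arrays, in 6 panels by gene group, with replicates 4 and 5 left of the dashed line and replicates 1, 2 and 3 right of it. Each point is 1 array, lines only join points of a set, and genes such as msp-76, dpy-5 and hsp-16.41 stand high on both left-hand arrays while spe-44, col-19 and hsp-1 sit at nearly 1 level throughout.

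Cuticle collagens held the largest single difference of a named gene. Of 144 measured, 39 were at least 2-fold higher on replicates 4 and 5 and none lower, against 2.92% of all genes. Without overlap 121 lay above replicates 1 to 3 and 3 below, against 29.9% and 15.8% of all genes. After centring 30 were at least 2-fold higher, and 91 lay above and 18 below, against 323, 2684 and 7108 of all 17118 genes. The median collagen difference was 0.54, over a range of -0.35 to 4.58, so a minority of the family carried the large values. Among the 39, 19 were at least 4-fold and 8 at least 8-fold higher. Unlike the msp result, 21 of the 39 were read on probe sets without shared probes.

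The collagen gene col-91 read 10.01 and 9.64 on replicates 4 and 5, against 5.27, 5.33 and 5.16 on replicates 1, 2 and 3, a 23.9-fold difference. The gene dpy-5, whose loss makes worms short and fat, read 10.87 and 10.74, against 7.0, 6.78 and 6.51, or 16.5-fold. Next came col-104, at 10.24 and 9.95 against 6.31, 6.34 and 6.44, and then col-48, at 10.15 and 10.12 against 6.48, 6.46 and 6.30. All 4 were at mid-range or dim intensity on replicates 1 to 3 and bright on both of the others.

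Collagens named for body shape were among the higher genes. The blister collagens bli-1 and bli-2, needed for the struts of the adult cuticle, differed by 2.25 and 1.52. Differences of 2.01 and 2.0 were found for sqt-1 and sqt-2, of 1.71 for rol-6, of 1.75 for dpy-17 and of 1.53 for lon-3, genes whose mutants are short, long or rolling. Of the 5 furrow collagens, which together build the annular furrows of the cuticle, dpy-3 was 2-fold higher, at 1.23, while dpy-2, dpy-7, dpy-8 and dpy-9 lay between 0.83 and 0.98. All 5 furrow collagens read higher on both replicates 4 and 5 than on any of replicates 1 to 3.

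A pair of collagens that were bright on all 5 arrays differed little. The adult collagen gene col-19 read 13.02 on both replicates 4 and 5, against 12.77, 12.86 and 12.89 on replicates 1, 2 and 3. The still brighter col-119 differed by 0.05. At the low end, col-52 read 6.09 and 6.31, against 6.58, 6.68 and 6.39, which put both replicates 4 and 5 below the others by a small step.

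Genes of the moult and of the surrounding matrix followed in part. Of 26 moulting genes, 5 were at least 2-fold higher and none lower, against 2.92% and 0.129% of all genes, and the median was 0.44. The matrix protein gene noah-1 read 8.95 and 9.13 on replicates 4 and 5, against 6.81, 6.97 and 6.06 on replicates 1, 2 and 3, or 5.38-fold. The moulting gene mlt-8 read 8.53 and 8.46, against 6.49, 6.38 and 6.48, or 4.13-fold. The other members past 2-fold were noah-2, mlt-11 and mlt-9, at 1.28, 1.24 and 1.11. The nuclear receptor gene nhr-23, a regulator of moulting, did not share that direction: it read 8.73 and 8.80, against 9.13, 8.80 and 8.99.

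Hedgehog-related proteins in nematodes include many secreted proteins of epidermis and cuticle. Of 80 such genes, patched-related ones included, 10 were at least 2-fold higher and none lower, against 2.92% and 0.129% of all genes. Their median difference was 0.11 and turned to -0.08 after centring, so most of the family did not take part. The gene grl-7 read 8.44 and 8.49 on replicates 4 and 5, against 6.45, 6.30 and 6.2 on replicates 1, 2 and 3, while grl-21 differed by 1.84 and grd-14 by 1.72. The cuticlin gene cut-2, which encodes a noncollagen cuticle component, was the 1 member of 34 past 2-fold, at 1.72. None of 8 epidermal markers outside the collagens reached 2-fold, and their median was 0.32.

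Muscle genes were mostly higher on replicates 4 and 5, by smaller steps than the leading sperm and collagen genes. Of 54 measured, 8 were at least 2-fold higher and none lower, against 2.92% and 0.129% of all genes. Without overlap 48 lay above replicates 1 to 3, against 29.9% of all genes. Their median difference was 0.54 as deposited and 0.35 after centring, when 4 met the 2-fold rule, against 323 of all 17118 genes. The myosin heavy chain gene myo-3 read 9.30 and 9.24 on replicates 4 and 5, against 7.55, 7.89 and 7.68 on replicates 1, 2 and 3, or 2.95-fold. The major body-wall myosin gene unc-54 read 11.67 and 11.62, against 10.61, 10.51 and 10.69, or 2.06-fold. Both myosin genes showed a clear step between the sets.

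Other muscle genes past 2-fold came from several structures. The giant thick filament proteins twitchin (unc-22) and obscurin (unc-89) differed by 1.42 and 1.06, and the ryanodine receptor gene unc-68, which releases calcium for contraction, by 1.28. The troponin I gene tni-1 read 10.35 and 10.24 on replicates 4 and 5, against 9.10, 9.11 and 9.01 on replicates 1, 2 and 3. Of the 18 attachment genes, all 18 lay above without overlap, with a median of 0.69, led by the integrin alpha subunit gene pat-2 at 1.14 and the LIM protein gene alp-1 at 1.13. The perlecan gene unc-52 and the adhesion gene unc-97 stood just under 2-fold, at 0.87 and 0.92.

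Several abundant filament genes differed less. Paramyosin (unc-15), the core of the thick filament, read 11.76 and 11.74 on replicates 4 and 5, against 10.91, 10.94 and 10.77 on replicates 1, 2 and 3. Tropomyosin (lev-11) differed by 0.28, body-wall troponin C (pat-10) by 0.15 and the actin gene act-4 by 0.12. The pharyngeal myosin gene myo-2 differed by 0.36. As deposited, each of these 5 genes read higher on both replicates 4 and 5 than on the other mutant arrays, but centring lowers the differences of pat-10 and act-4 below 0. Of the 17 thin filament genes, 15 lay above without overlap as deposited and 9 after centring, against 5114 and 2684 of all 17118 genes.

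**Figure D3:**
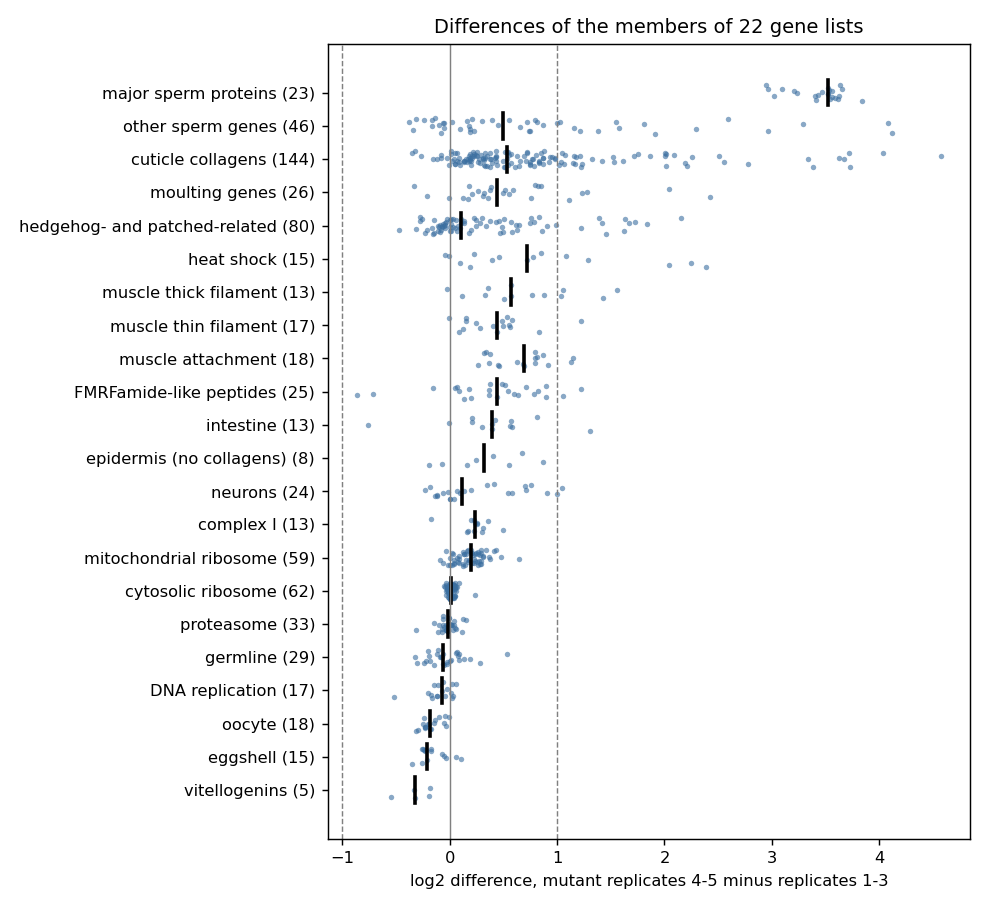
Log2 difference, mutant replicates 4 and 5 minus replicates 1 to 3 (horizontal axis), for every measured member of 22 gene lists. Each point is a gene, the black bar is the list's median, the number in brackets is the members measured, and dashed lines mark 2-fold; major sperm proteins lie wholly between 2.95 and 3.84, while vitellogenin, oocyte and eggshell genes have medians of -0.32, -0.19 and -0.21.

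Heat shock genes also separated the sets. Of 15 measured, 5 were at least 2-fold higher and none lower, against 2.92% and 0.129% of all genes, with a median of 0.72. After centring 4 were higher, against 323 of all 17118 genes. The small heat shock protein gene hsp-16.41 read 9.91 and 10.17 on replicates 4 and 5, against 7.90, 7.51 and 7.55 on replicates 1, 2 and 3, or 5.22-fold. The inducible chaperone gene hsp-70 read 10.22 and 10.38, against 8.25, 7.93 and 7.97, and hsp-16.2 read 10.02 and 10.48, against 8.28, 8.12 and 8.23. The constitutive chaperones differed little: hsp-1 by -0.05 and hsp-90 by -0.01, both with overlapping sets. Of the endoplasmic reticulum chaperones, hsp-3 differed by 0.85 and hsp-4 by 0.39.

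Yolk, oocyte and eggshell genes ran the other way by small amounts. All 5 vitellogenin genes read lower on both replicates 4 and 5 than on any of replicates 1 to 3, against 15.8% of all genes, with a median of -0.32. The largest of them, vit-1, read 12.17 and 12.16 on replicates 4 and 5, against 12.51, 12.81 and 12.83 on replicates 1, 2 and 3. Of 18 oocyte genes, 13 lay below without overlap and none above, with a median of -0.19, and of 15 eggshell genes 10 lay below and 1, perm-3, above. The yolk receptor gene rme-2 read 12.07 and 12.17, against 12.30, 12.39 and 12.41, and the eggshell gene perm-2 read 12.15 and 12.17, against 12.44, 12.49 and 12.60. None of these 38 genes reached 2-fold.

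The pattern of general germ line genes depended on scaling. Of 29, none reached 2-fold. As deposited, 9 lay below and 4 above without overlap, against 15.8% and 29.9% of all genes, and the median was -0.06. After centring 17 lay below and 2 above, when 7108 of all 17118 genes lay below and 2684 above. The median was then -0.25, against -0.16 for all genes. Of 17 DNA replication and cell cycle genes, 9 lay below and none above as deposited, and 12 below and none above after centring. Their medians were -0.07 and -0.26, and the widest difference as deposited was that of cyclin E (cye-1), at -0.52. Cytosolic ribosomal proteins, with 62 members, had a median of 0.01 as deposited and -0.18 after centring. Somatic gonad genes, 6 in number, had a median of 0.08 as deposited and -0.11 after centring, and none reached 2-fold.

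Other tissues gave mixed values. Of 13 intestinal genes, 8 lay above without overlap and 1 below, against 29.9% and 15.8% of all genes, with a median of 0.40. After centring 7 lay above and 1 below, with a median of 0.205, when 2684 of all 17118 genes lay above and 7108 below. The intermediate filament gene ifb-2 was the 1 past 2-fold, at 1.31, while the metallothionein gene mtl-2 differed by -0.76. Of 24 neuronal genes, 12 lay above and 2 below as deposited, and 8 above and 7 below after centring. Among them ric-4, the worm SNAP-25 of synaptic vesicle fusion, was the 1 past 2-fold, at 1.05. The neuropeptide processing genes egl-3 and sbt-1 lay just under, at 0.99 and 0.91. Among 25 FMRFamide-like neuropeptide genes, 18 lay above without overlap and 2 below, against 29.9% and 15.8% of all genes, with flp-15 at 1.23, flp-9 at 1.06 and flp-6 at -0.87.

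Mitochondrial genes, the system that gas-1 belongs to, differed by small amounts. Of the 13 complex I genes measured, 12 lay above without overlap as deposited, against 29.9% of all genes. After centring, 3 of the 13 lay above, when 2684 of all 17118 genes lay above and 7108 below. None of the 13 reached 2-fold, and the median was 0.24 as deposited and 0.05 after centring. The complex I gene nuo-1 read 11.54 and 11.41 on replicates 4 and 5, against 10.74, 11.12 and 11.06 on replicates 1, 2 and 3. Of 59 mitochondrial ribosomal protein genes, 40 lay above and 1 below as deposited, and 12 above and 14 below after centring, with medians of 0.20 and 0.01. Of 33 genes of the other oxidative phosphorylation complexes, 25 lay above and 2 below as deposited, and 5 above and 8 below after centring, where the median of 0.15 turned to -0.04.

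Genes chosen for their difference between the strains varied inside the mutant as well. The 16 genes of that list, some higher and some lower in the mutant than in the wild type, had a median difference of 0.04. Of them 6 lay above without overlap and 6 below, against 29.9% and 15.8% of all genes. As deposited, 1 of the 16, F57G8.7, was past 2-fold. It read 10.09 and 10.25 on replicates 4 and 5, against 8.63, 8.48 and 8.23 on replicates 1, 2 and 3. After centring 1 was higher and 2 lower by the 2-fold rule, against 323 and 57 of all 17118 genes. The flavin monooxygenase gene fmo-2 stood at 8.83 and 9.16, against 10.32, 10.07 and 9.57, which is just short of a 2-fold difference in the lower direction. Of the detoxification families, 3 of 40 glutathione S-transferase genes were higher and none lower, 2 of 73 cytochrome P450 genes higher and 1 lower, and 1 of 64 UDP-glucuronosyltransferase genes higher and 1 lower. Among all genes 2.92% were higher and 0.129% lower. These included gst-14 at 1.19, cyp-13B1 at 1.86 and ugt-13 at 1.38.

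Large families without a shared direction held single genes with wide differences. Of 220 C-type lectin genes, a family of secreted sugar-binding proteins, 7 were higher (3.18%, against 2.92% of all genes) and 2 lower (0.909%, against 0.129%), with clec-266 at 2.26 and clec-51 at -1.13. Among 40 genes of the embryo's own early transcription, 5 were higher and 1 lower, against the same shares of all genes, and all 6 carry the name sdz. Of these, sdz-24 read 8.38 and 8.24 on replicates 4 and 5, against 6.28, 6.54 and 6.12 on replicates 1, 2 and 3. The median of the 40 was 0.13 and turned to -0.06 after centring. Of 7 fatty acid desaturase genes none reached 2-fold, with fat-3 at 0.64, fat-6 at 0.62 and fat-7 at -0.42. The pharyngeal cuticle list had 1 of 19 past 2-fold, phat-7 at 1.09, and the proteasome list none of 33.

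Few genes were lower on replicates 4 and 5. The largest difference was at pmp-5, which encodes an ABC transporter of the peroxisomal membrane family, at 6.99 and 6.96 on replicates 4 and 5, against 8.91, 9.48 and 9.74 on replicates 1, 2 and 3, or 5.29-fold lower. The uncharacterised gene T05E12.6 read 7.09 and 7.07, against 9.16, 9.03 and 9.48, or 4.42-fold lower. The C-type lectin gene clec-190 read 8.24 and 8.45, against 9.97, 10.25 and 10.12. In these 3 genes both arrays of replicates 4 and 5 agreed to within 0.21.

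Smaller differences were found at the other lower genes named. The lipase-related gene lips-14 differed by -1.93, the caenacin antimicrobial peptide genes cnc-3 and cnc-7 by -1.40 and -1.39, and the cytochrome P450 gene cyp-25A1 by -1.26. The gene drd-1 differed by -1.43, the chemoreceptor-family gene srh-237 by -1.39 and sdz-6 by -1.24. On replicates 4 and 5 the means of lips-14, cnc-7 and sdz-6 were 4.6, 4.04 and 4.41, under the highest dim-control median of 4.68. Of the 22 lower genes, 12 lie on chromosome V, which holds 4317 of the 17118 genes measured. None lies on chromosome I or X, which hold 2469 and 2350. A pattern by chromosome was not tested. The 499 higher genes were spread over all 6 nuclear chromosomes, from 1.69% of the genes measured on chromosome III to 3.95% on chromosome II.

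By gene name, the higher set held more than the lists above. Genes known by a sequence name alone made up 190 of the 499, and the sperm, collagen, muscle and heat shock lists together made up 90. Higher members made up 7 of 13 dbd genes, 4 of 7 msrp genes, 4 of 19 skr genes and all 3 gmap genes, against 2.92% of all genes, families picked after their counts were seen. Of the 10 largest differences, Y47D7A.13 at 10.29 and 9.94 against 6.4, 6.0 and 6.19, and F58A6.9 at 11.22 and 11.09 against 7.35, 7.46 and 7.46, have only a sequence name. A further gene of this kind, R12E2.15, read 7.45 and 7.29 against 3.48, 3.55 and 3.82, where replicates 1 to 3 sat at or under the level of the dim controls. Both F58A6.9 and R12E2.15 were read on probe sets that share probes with similar sequences, so their values may not be theirs alone. On the mutant arrays F58A6.9 read close to the msp-76 values given above. The part of shared probes in these 2 genes was not tested.

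Genes near the 2-fold limit show how soft it is. Just inside it, spch-1, which encodes a sperm chromatin protein, differed by 1.00, and just outside it egl-3 differed by 0.99. Raising the demand to a gap of 2-fold between every crossing pair of arrays left 430 higher probe sets (1.91%) and 14 lower (0.0621%).

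The wild-type arrays give a level against which the mutant sets can be read, without entering the comparison. Of the 499 genes higher on replicates 4 and 5, the wild-type median was at or above the lower of the 2 arrays in 120 (24.0%), between the sets in 161 (32.3%) and at or below the highest of replicates 1 to 3 in 218 (43.7%). The groups of genes did not share 1 position. All 38 higher sperm genes had a wild-type median at or above replicates 4 and 5. Of the 8 higher muscle genes, 7 had it between the sets and 1 at or below replicates 1 to 3.

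**Figure D4:**
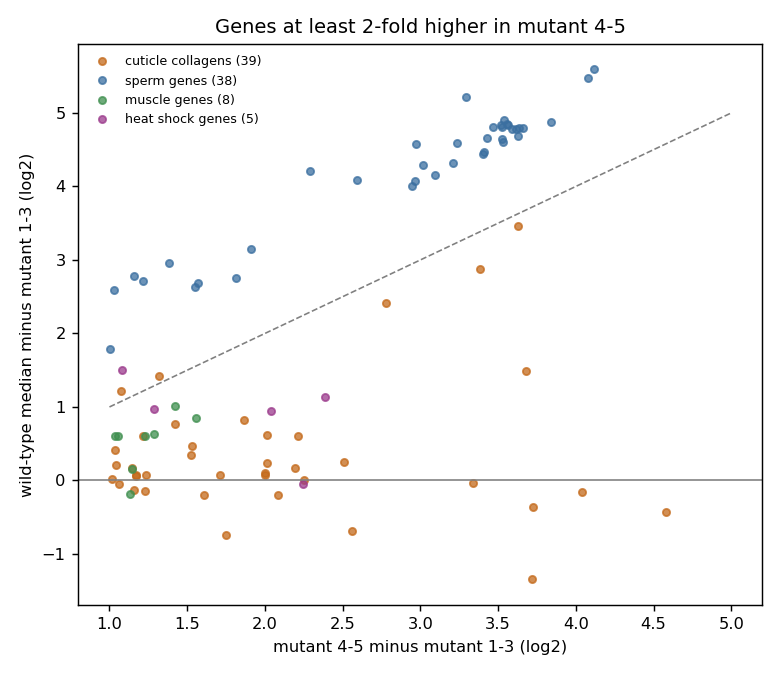
Genes of 4 groups at least 2-fold higher on mutant replicates 4 and 5: their log2 difference from mutant replicates 1 to 3 (horizontal axis) against the wild-type median minus the mean of mutant replicates 1 to 3 (vertical axis). Points on the dashed line have a wild-type median equal to the mean of replicates 4 and 5, and points on the horizontal line 1 equal to that of replicates 1 to 3; the 38 sperm genes lie above the dashed line and most of the 39 collagens well below it.

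Collagens took every position. Of the 39 higher collagens, 2 had a wild-type median at or above replicates 4 and 5, 19 between the sets and 18 at or below replicates 1 to 3. The gene col-81 read 12.57 and 12.54 on replicates 4 and 5 and 8.7, 9.33 and 8.74 on replicates 1, 2 and 3, beside 12.36, 12.40, 12.39, 12.39 and 7.95 on wild-type replicates 1 to 5. By contrast, col-48, whose mutant values are given above, read 4.76, 4.95, 5.08, 5.07 and 8.26 on wild-type replicates 1 to 5. Like col-81, col-139 had a wild-type median of 12.38 and a low value, 8.11, on wild-type replicate 5. The wild-type median of col-130, 3.34 log2 units higher on mutant replicates 4 and 5, was 5.11.

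The wild-type arrays were not uniform either. Beside the mutant msp medians given above, the wild-type medians were 12.39 to 12.50 for replicates 1 to 4 but 9.52 for replicate 5. In the muscle lists together, the medians were 9.35 and 9.30 on mutant replicates 4 and 5 and 8.31 to 8.54 on mutant replicates 1 to 3, beside 8.80 to 8.99 in the first 4 wild-type replicates, with the fifth lower at 7.93. The heat shock medians were 10.02 and 10.17 on mutant replicates 4 and 5 and 7.93 to 8.25 on replicates 1 to 3, with 8.99 to 9.15 on the wild-type arrays. Neither mutant set sat at the level of the first 4 wild-type arrays in all 3 groups.

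**Figure D5:**
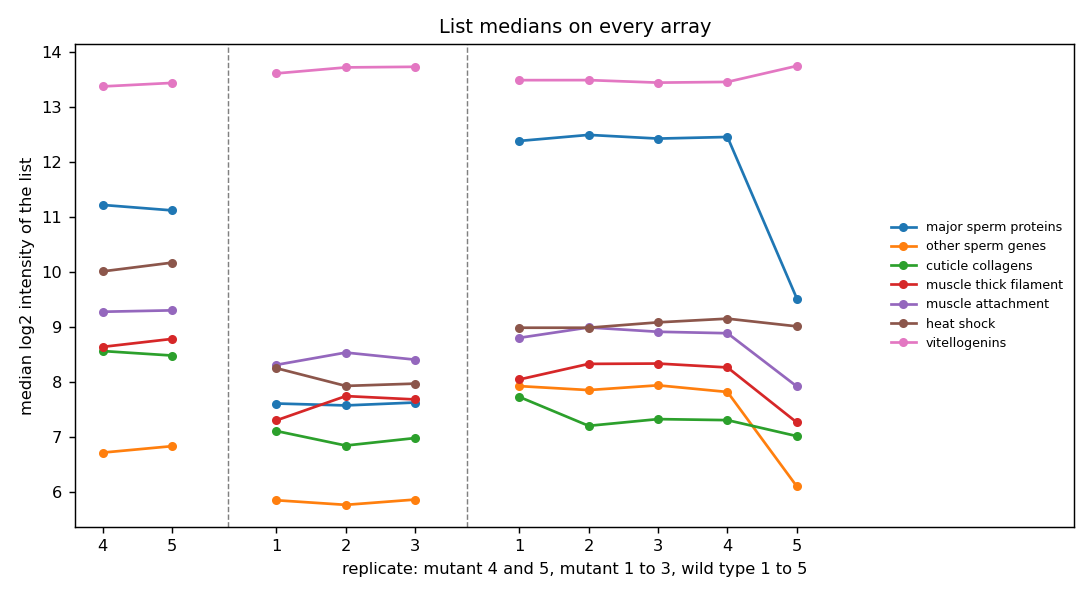
Median log2 intensity of 7 gene lists (vertical axis) on mutant replicates 4 and 5, mutant replicates 1 to 3 and wild-type replicates 1 to 5, left to right. Each point is 1 array and lines only join points of a set; the major sperm protein median is 11.22 and 11.12 on mutant replicates 4 and 5, 7.58 to 7.63 on mutant replicates 1 to 3, and 9.52 on wild-type replicate 5 against 12.39 to 12.50 on the other wild-type arrays.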

How the data were processed

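Total RNA of young adult worms was hybridised to Affymetrix whole-genome arrays, 1 array per replicate, per the labels. The deposited values were read as log2 intensities, a scale inferred from their range, because neither the normalization nor the software is given in the sources used here. They were used as deposited, without the 77 control probe sets, leaving 22548. Number of arrays limits the precision, and replicates may differ technically as well as biologically.

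Gene names are those of the supplied platform annotation, updated through RefSeq (WBcel235): 20766 probe sets had 1 gene, 887 several and 895 none, and 20701 matched RefSeq. No coordinates or sequences are given. Each gene was read on its brightest probe set over the 5 mutant arrays among those naming it alone. A gene was counted higher or lower at a difference of at least 2-fold with no overlap between the sets. The counting rule was tested on simulated data. No test between the sets was run, because their values chose them.

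The sets and the gene lists were chosen with earlier results of these data known. Named were gas-1, the 10 largest differences each way above the dim controls (33 control probe sets below the array median on all arrays), and the largest members of each list, up to 8 for sperm, muscle and collagen and up to 4 for the others, plus genes known for a role; further members were picked after their values were seen. All deposited columns mapped to a sample. At least 99.76% of values differed between any 2 mutant arrays, so none was a copy. Alternatives were quantile normalization, centring, leaving out dim or shared-probe sets, other call limits, other probe set choices and leaving out each array. Python 3.11.15, pandas 2.3.3, numpy 2.4.6 and matplotlib 3.10.9 were used.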

Additional observations from a re-analysis of the deposited data

Results flagged for a closer look

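In 8 of 161 groups of 5 arrays, the highest or lowest array stood apart from the other 4 by most of the group's range. Chance gives about 1 in 20 such groups, but 8 of 161 cannot be read against that rate. Most of the groups are the 145 named genes on the mutant arrays. Many of these genes were picked for a wide gap between the sets, which leaves little room for 1 array to stand apart. Most of the 8 flagged groups were instead list medians on the wild-type arrays.

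Of the flagged groups, 5 concern wild-type replicate 5. Its list medians were 9.52 for the major sperm proteins, against 12.39 to 12.50 on the other wild-type arrays, 6.10 for the other sperm genes, against 7.82 to 7.94, and 7.93 for the muscle genes, against 8.80 to 8.99. They were higher than on the other wild-type arrays for the vitellogenins, at 13.75 against 13.45 to 13.50, and for the oocyte genes, at 12.01 against 11.74 to 11.79. Wild-type replicate 1 had a moulting gene median of 7.21, against 6.80 to 6.89 on the other 4.

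Among the mutant arrays, replicate 4 was low for the replication gene orc-5, at 10.42 against 10.617 to 10.696 on the other 4, and for cwp-4, a gene of male-specific neurons, at 5.69 against 5.96 to 6.07.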

How the results depend on the processing

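No paired analysis was possible because the 2 sets share no replicate number. The sperm, muscle and collagen medians stayed above 0 under every alternative run. The 697 higher probe sets became 457 after centring, 363 without shared-probe sets, 2067 at a 1.5-fold limit and 430 with a 2-fold gap. The 30 lower ones became 65 after quantile normalization, 73 after centring, 18 without the dimmest 50%, 18 without shared-probe sets, 244 at a 1.5-fold limit and 14 with a 2-fold gap. Leaving out 1 array gave 666 to 755 higher and 33 to 65 lower, the last without replicate 5. The sperm median of 1.21 became 1.04 after quantile normalization, 1.02 after centring, 2.44 and 3.21 without the dimmest 33% and 50%, and 0.19 without shared-probe sets, which leaves 1 of the 23 msp genes and takes the msp median from 3.52 to 1.22. The muscle median of 0.54 became 0.36 after quantile normalization and 0.35 after centring. The collagen median of 0.54 became 0.41 after quantile normalization, 0.34 after centring and 0.74 without the dimmest 50%. Without 1 array these medians were 1.13 to 1.29, 0.51 to 0.55 and 0.50 to 0.59. Of 1900 combinations of the other 181 values with an alternative, 1863 kept their sign. The 69 values of at least 2-fold kept theirs in all 709 combinations and stayed past 2-fold in 676. Where the cause of such a move is not given here, the cause was not tested. Genes near the dim controls, at 4.42 to 4.68, may have differences that understate a change, which was not tested.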
